A study of Mus musculus with 6 samples.

Results

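Cells make cholesterol and fatty acids through enzymes whose genes are switched on together by the sterol regulatory element binding proteins (SREBPs). The levels of 32 such genes were followed in tumour-associated macrophages, as 21 genes of the sterol branch and 11 of the fatty acid branch. They were taken by gene symbol from the 55487 Ensembl genes of the count tables. Each symbol matched 1 Ensembl gene, and all 32 passed the filter on low counts that left 14140 genes for testing. The macrophages came from Lewis lung carcinoma, a transplantable mouse lung cancer line injected under the skin of C57BL/6 mice. Tumours were removed after 15 to 17 days, and cells enriched for CD11b were sorted as F4/80+ CD11b+ Ly6C- Ly-6G-. The sort parted them by surface MHC class II, the antigen-presenting protein, into 3 libraries of rRNA-depleted total RNA titled MHC-IIhigh and 3 titled MHC-IIlow. All 6 came from tumour-bearing mice, and the labels name no drug, no genetic change and no age. Replicates 1, 2 and 3 of either title belong to batches 1, 2 and 3. Whether replicates came from separate mice is not said in the labels, so a p-value here weighs a difference against the spread of these libraries only, and that spread may be technical.

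Libraries titled MHC-IIhigh, called labelled-high below, held 15159356 to 25473051 reads in genes, and those titled MHC-IIlow, called labelled-low, held 10202879 to 21290781. Transcripts of the sorted protein went against the titles. H2-Aa, an MHC class II chain, stood at 4.40, 5.48 and 6.69 CPM (read counts scaled to TMM-adjusted library sizes) in labelled-high libraries, against 1377, 1166 and 1506 CPM in labelled-low libraries. Every direction below is therefore that of the libraries as labelled. The macrophage genes Csf1r and Lyz2 were abundant throughout, at no less than 692 and 3222 CPM in any library. The 8 macrophage markers, which include both, summed to 8720 to 10400 CPM in labelled-high libraries and 5670 to 8780 CPM in labelled-low libraries. Labelled-low replicate 3 differed from the other 5 libraries in its make-up. An rRNA copy took 47.3% of its reads in genes, against 3.85% to 13.5% elsewhere, and its log2 CPM, relative to the mean of each gene, climbed by 0.86 per 10 percentage points of GC content, against -0.48 to 0.21 elsewhere. It was the highest of the 6 libraries for 12 of the 32 genes and the lowest for 13, as it was for 36.8% and 37.1% of all tested genes. Log2 fold changes, labelled-high over labelled-low and ± their standard error, are therefore given from 2 fits. The first is from edgeR's quasi-likelihood test with TMM scaling. The second is from that test with each library's GC trend removed and the batch as a block, and is called the GC-adjusted blocked fit.

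SREBP precursors sit in the membrane of the endoplasmic reticulum, held there with their escort SCAP by INSIG proteins when sterols are plentiful. When sterols run low, the complex moves to the Golgi, where proteases release the active factor to the nucleus. SREBP-2, from Srebf2, is best known for driving the cholesterol pathway, and SREBP-1, from Srebf1, for driving fatty acid synthesis, desaturation and elongation. In macrophages, sterols made or taken up also give rise to ligands of the LXR nuclear receptors, which promote cholesterol efflux and raise Srebf1.

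Fads2, the delta-6 desaturase that opens the synthesis of long polyunsaturated fatty acids, had the largest difference in size among the 32 genes. It was 3.90-fold lower in labelled-high libraries, though short of the threshold, an adjusted p of 0.05 over all genes (-1.96 ± 0.40, adjusted p 0.117 by edgeR). In the GC-adjusted blocked fit it passed (-1.57 ± 0.27, adjusted p 0.0147). None of the 21 sterol genes passed in either fit. By edgeR with TMM scaling 0 of the 32 genes were called, while 50 of 14140 genes were lower (0.354%) and 13 were higher (0.0919%). With the batch as a block 40 were lower and 1 was higher, again with 0 of the 32. The GC-adjusted blocked fit called 375 genes lower (2.65%) and 276 higher (1.95%), with Fads2 the single member among them.

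At an unadjusted p under 0.05 in the first fit, 8 of the 32 genes were lower, 5 of the sterol and 3 of the fatty acid branch, and 0 were higher. Over all tested genes 7.99% were lower and 4.06% higher by that measure. DESeq2 called 1 of the 32, Fads2, and 2.25% of all genes. limma-voom with sample quality weights called 21 of the 32 but also 43.1% of all genes. It gave labelled-low replicates 1, 2 and 3 weights of 6.51, 0.255 and 0.315, so its labelled-low side rested mostly on replicate 1. The median log2 fold change was -0.11 over the sterol genes and -0.41 over the fatty acid genes, against -0.02 over all tested genes. In the GC-adjusted blocked fit these medians were -0.10 and -0.19, against 0.04.

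**Figure D1:**
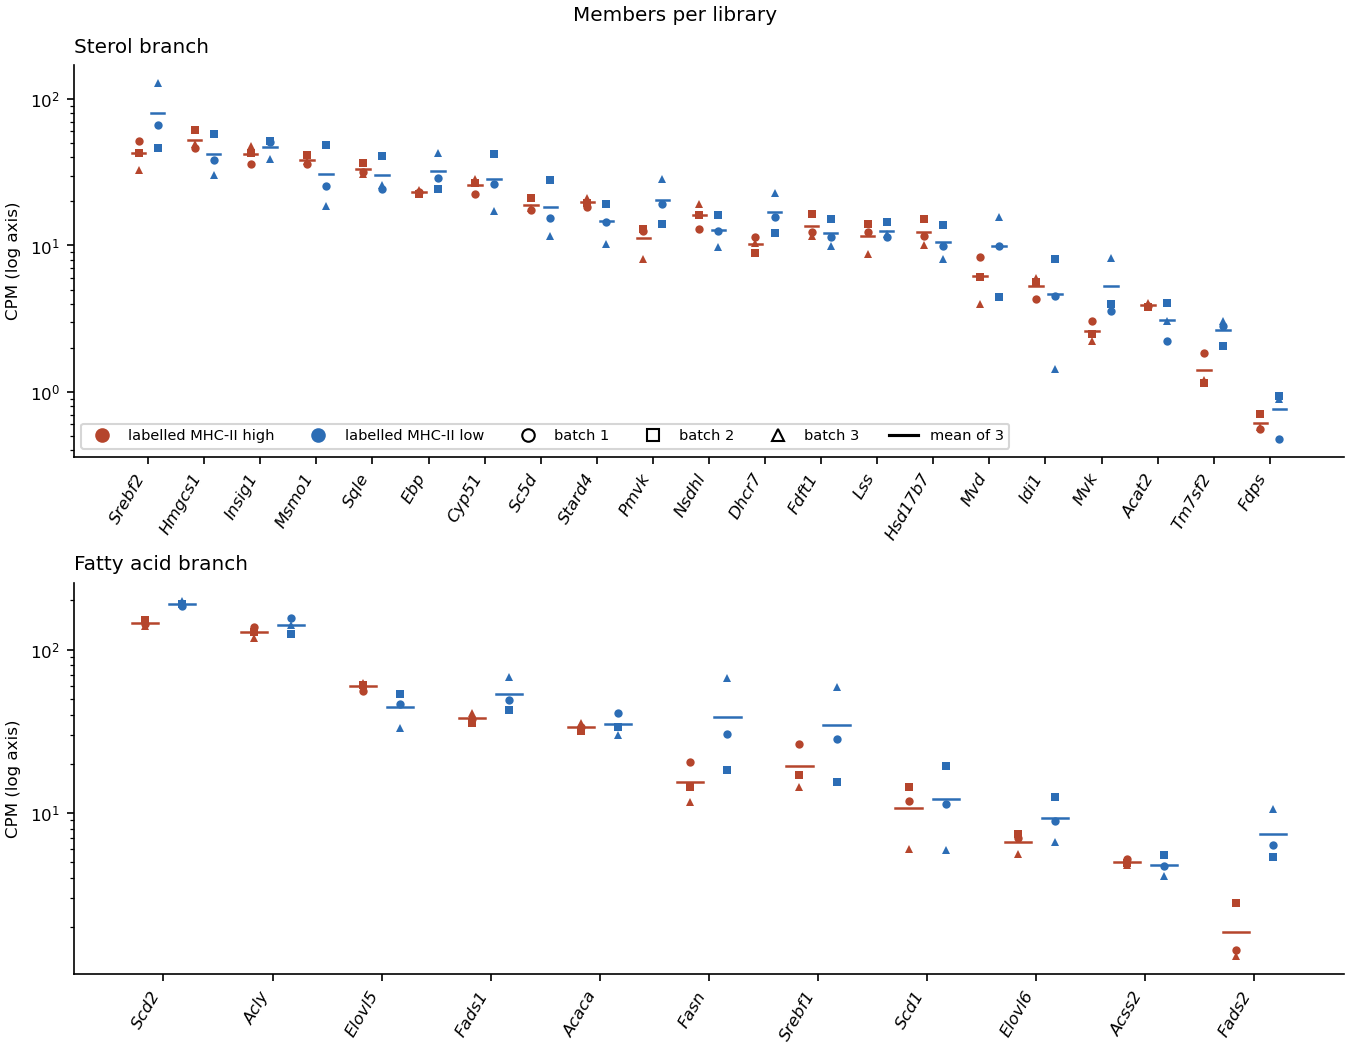
Abundance of each gene in every library, in CPM on a log axis, with the sterol branch above and the fatty acid branch below. Points are libraries (red labelled high, blue labelled low), shaped by batch, and bars are means of 3; for Fads2 the labelled-high libraries (1.32 to 2.81 CPM) all lie below the labelled-low ones (5.40 to 10.5 CPM).

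The transcription factors themselves did not pass in either fit. limma-voom with sample quality weights, which called 43.1% of all genes, called Srebf2 (adjusted p 0.0101) and Srebf1 (adjusted p 0.0225) lower. Without labelled-low replicate 2, where 7.16% of genes were called, edgeR also called Srebf2 lower. Srebf2, which encodes SREBP-2, stood at 52.0, 42.8 and 32.9 CPM in labelled-high batches 1, 2 and 3, against 66.9, 46.0 and 129 CPM in labelled-low batches 1, 2 and 3. The groups overlapped in CPM, and labelled-low replicate 3 was far above all other libraries. With the GC trend removed the groups no longer overlapped, with labelled-high below, as for 9.92% of tested genes. The log2 fold change was -0.91 ± 0.37 (adjusted p 0.399 by edgeR), and -0.23 ± 0.10 in the GC-adjusted blocked fit (adjusted p 0.261). Without labelled-low replicate 3 it was -0.41. Srebf1, the source of both SREBP-1 forms, stood at 26.6, 17.1 and 14.4 CPM in labelled-high libraries, against 28.3, 15.5 and 59.1 CPM in labelled-low libraries. Its within-batch log2 ratios were -0.09, 0.14 and -2.04 in batches 1, 2 and 3, so a clear distance was present in batch 3 alone. The log2 fold change was -0.81 ± 0.46 (adjusted p 0.471 by edgeR), -0.07 ± 0.13 in the GC-adjusted blocked fit (adjusted p 0.822), and -0.18 without labelled-low replicate 3. Insig1, the retention protein and itself an SREBP target, stood at 36.2, 42.7 and 48.0 CPM in labelled-high libraries, against 50.6, 51.8 and 38.7 CPM in labelled-low libraries. It was lower under the high label in batches 1 and 2 and higher in batch 3, with a log2 fold change of -0.16 ± 0.20 (adjusted p 0.689 by edgeR) and of -0.18 ± 0.15 in the GC-adjusted blocked fit.

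The sterol branch begins with the mevalonate steps. Hmgcs1, the cytosolic HMG-CoA synthase, stood at 46.1, 61.9 and 49.6 CPM in labelled-high libraries, against 38.4, 57.5 and 30.3 CPM in labelled-low libraries. Its within-batch log2 ratios of 0.27, 0.11 and 0.71 were all positive, but the groups overlapped and the log2 fold change of 0.31 ± 0.26 missed the threshold (adjusted p 0.561 by edgeR), as did 0.13 ± 0.11 in the GC-adjusted blocked fit. Mvk, mevalonate kinase, stood at 3.06, 2.50 and 2.22 CPM in labelled-high libraries, against 3.57, 3.97 and 8.21 CPM in labelled-low libraries. Pmvk, the kinase of the next step, stood at 12.6, 12.9 and 8.12 CPM in labelled-high libraries, against 19.3, 14.0 and 28.4 CPM in labelled-low libraries. For both kinases the groups did not overlap in CPM, and labelled-low replicate 3 was the highest library. With the GC trend removed the groups of both overlapped. The log2 fold change of Mvk was -0.97 ± 0.37 (adjusted p 0.388 by edgeR) and -0.41 ± 0.24 in the GC-adjusted blocked fit. That of Pmvk was -0.86 ± 0.31 (adjusted p 0.378) and -0.30 ± 0.13. Mvd, the decarboxylase that ends the mevalonate part, had a log2 fold change of -0.67 ± 0.47, which turned to 0.03 ± 0.18 in the GC-adjusted blocked fit.

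In the first fit, genes of the isoprenoid and squalene steps had fold changes smaller in size than their standard errors. Such values do not show that the levels were alike. The log2 fold change was 0.12 ± 0.24 for Sqle, squalene epoxidase, 0.11 ± 0.48 for Idi1, isopentenyl diphosphate isomerase, and -0.11 ± 0.25 for Lss, lanosterol synthase. In the GC-adjusted blocked fit these were 0.15 ± 0.14, -0.0021 ± 0.29 and -0.10 ± 0.16. Idi1 varied between labelled-low libraries, from 1.43 to 8.10 CPM, and its within-batch log2 ratios were -0.08, -0.52 and 2.04 in batches 1, 2 and 3. Fdft1, squalene synthase, had values of 0.13 ± 0.25 and 0.33 ± 0.17 in the 2 fits, which are uncertain, since 18.3% of its exon length lies opposite the abundant protease gene Ctsb and the strand setting of the counting is not given in the sources used here. Fdps, farnesyl diphosphate synthase, had 42 reads over the 3 labelled-high libraries and 37 over the 3 labelled-low ones, the lowest level per kilobase of the 32, with log2 fold changes of -0.30 ± 0.44 and -0.17 ± 0.46 in the 2 fits. Its exons overlap the annotated gene Gm43738 on the same strand over 26.7% of their length, where reads can be left uncounted as ambiguous.

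Of the enzymes that turn lanosterol into cholesterol, some had negative and others positive fold changes, none past the threshold. Dhcr7, the reductase of the last step, stood at 11.4, 8.96 and 10.4 CPM in labelled-high libraries, against 15.7, 12.1 and 22.7 CPM in labelled-low libraries. The groups did not overlap, with a log2 fold change of -0.70 ± 0.27 (adjusted p 0.388 by edgeR) and of -0.39 ± 0.13 in the GC-adjusted blocked fit (adjusted p 0.152). Tm7sf2, a sterol reductase, stood at 1.84, 1.16 and 1.22 CPM in labelled-high libraries, against 2.82, 2.04 and 3.03 CPM in labelled-low libraries. Again the groups did not overlap, and most of the log2 fold change of -0.89 ± 0.34 (adjusted p 0.388 by edgeR) was still there in the GC-adjusted blocked fit, at -0.75 ± 0.29 (adjusted p 0.199). Tm7sf2 shares 12.1% of its exon length with Vps51, so its counts are uncertain.

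Ebp, the sterol isomerase, stood at 23.3, 22.6 and 23.8 CPM in labelled-high libraries, against 29.1, 24.2 and 42.8 CPM in labelled-low libraries. The labelled-low values started just above the labelled-high ones, and the log2 fold change was -0.45 ± 0.24 (adjusted p 0.451 by edgeR) and -0.26 ± 0.12 in the GC-adjusted blocked fit. Positive values that missed the threshold were those of Msmo1, a methylsterol oxidase (0.30 ± 0.33), Nsdhl, a sterol dehydrogenase (0.31 ± 0.25), and Hsd17b7, a sterol ketoreductase (0.20 ± 0.27), with 0.23 ± 0.15, 0.17 ± 0.16 and 0.05 ± 0.16 in the GC-adjusted blocked fit. Stard4, a sterol carrier, and Acat2, a cytosolic thiolase, also had positive values, of 0.41 ± 0.25 and 0.32 ± 0.30, and 0.24 ± 0.14 and 0.40 ± 0.26 in the GC-adjusted blocked fit. Cyp51, lanosterol demethylase, and Sc5d, a sterol desaturase, had values of -0.15 ± 0.31 and 0.02 ± 0.32, and of -0.20 ± 0.19 and -0.11 ± 0.14 in the GC-adjusted blocked fit.

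Counted together, 11 of the 21 sterol genes had a negative log2 fold change, against 51.5% of all tested genes. For 5 of the 21 (Mvk, Pmvk, Dhcr7, Tm7sf2 and Ebp) all labelled-high libraries lay below all labelled-low ones, against 9.48% of tested genes, and for 0 they lay above, against 10.5%. With the GC trend removed 3 lay below (Dhcr7, Tm7sf2 and Srebf2) and 1 above (Stard4), against 9.92% and 14.3%. Mvk, Pmvk and Ebp then overlapped. Within every batch 6 sterol genes were lower and 5 higher under the high label, against 19.3% and 20.8% of tested genes. The median log2 ratio of the branch was 0.04, -0.12 and 0.25 in batches 1, 2 and 3, so its sign differed between batches. Its summed CPM was 376 to 419 in labelled-high libraries and 395 to 467 in labelled-low libraries.

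**Figure D2:**
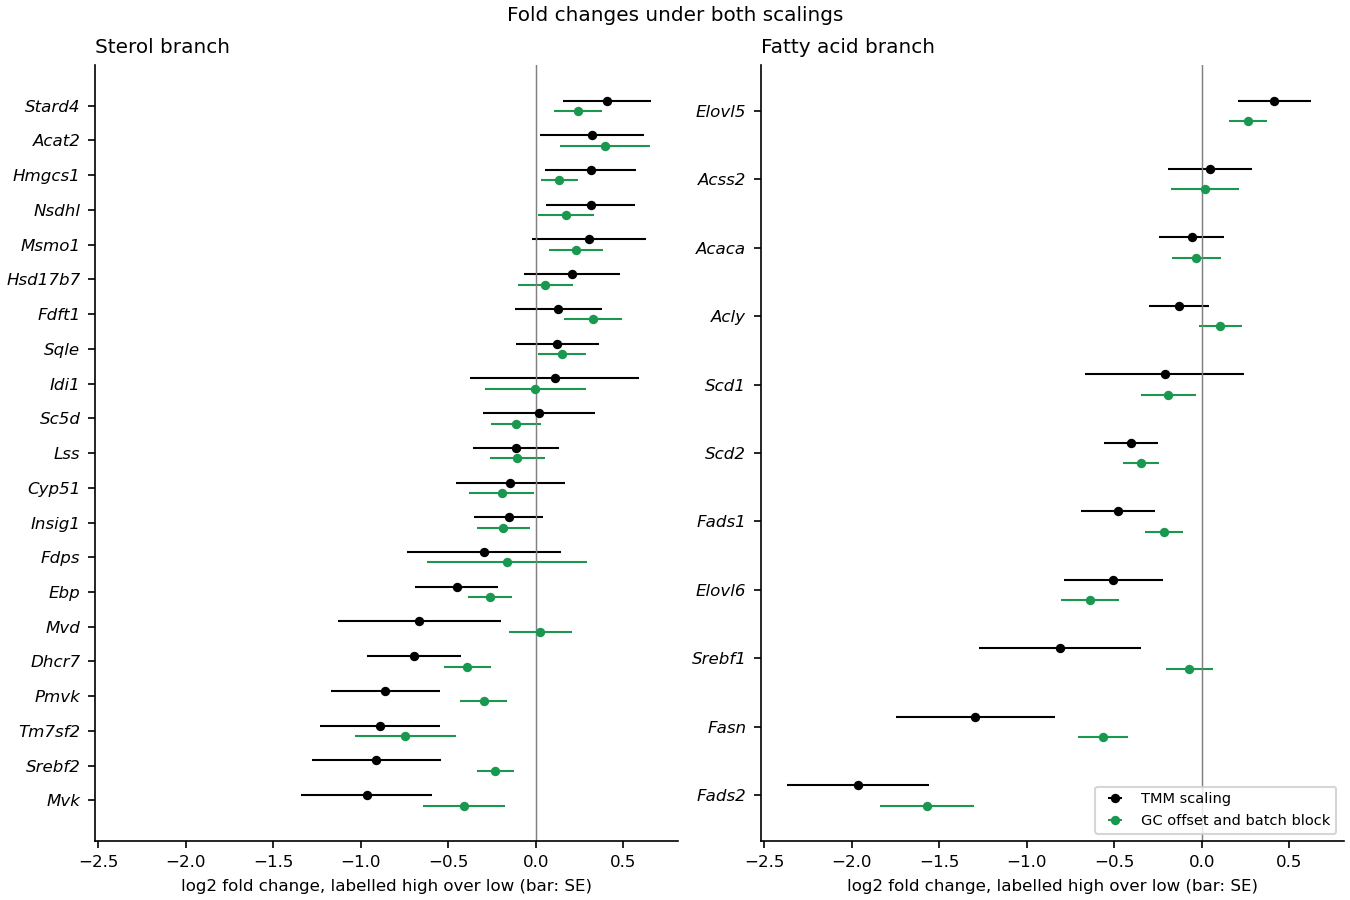
Log2 fold change of each gene, labelled high over labelled low, with its standard error as a bar, from the test with TMM scaling (black) and with GC offset plus batch block (green). Mvk, Srebf2, Pmvk, Mvd, Srebf1 and Fasn lie nearer to 0 in the second, and Fads2 is the farthest from 0 in both, at -1.96 and -1.57.

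The fatty acid branch starts from cytosolic acetyl-CoA. Acly, ATP citrate lyase, which makes it from citrate, stood at 138, 129 and 118 CPM in labelled-high libraries, against 157, 124 and 141 CPM in labelled-low libraries. The groups overlapped, with a log2 fold change of -0.13 ± 0.17 (adjusted p 0.695 by edgeR) that turned to 0.11 ± 0.12 in the GC-adjusted blocked fit. Acss2, which makes acetyl-CoA from acetate, and Acaca, the carboxylase that commits it to fatty acids, had values of 0.05 ± 0.24 and -0.06 ± 0.19, and of 0.02 ± 0.20 and -0.03 ± 0.14 in the GC-adjusted blocked fit. Fasn, fatty acid synthase, stood at 20.6, 14.4 and 11.6 CPM in labelled-high libraries, against 30.3, 18.4 and 66.6 CPM in labelled-low libraries. It was lower under the high label in each batch, by log2 ratios of -0.56, -0.36 and -2.52, although the groups overlapped in CPM. Fasn had a log2 fold change of -1.29 ± 0.45 (adjusted p 0.367 by edgeR) and of -0.56 ± 0.14 in the GC-adjusted blocked fit (adjusted p 0.0662). Without labelled-low replicate 3 it was -0.65 (adjusted p 0.602). Fasn passed the test in edgeR without a filter on low counts (-1.18, adjusted p 0.00214) and without labelled-low replicate 2 (-1.59, adjusted p 0.0346), settings that called 2.02% and 7.16% of their genes. It was also called by limma-voom with sample quality weights (-1.05, adjusted p 0.00383), which called 43.1% of all genes.

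The stearoyl-CoA desaturases put the first double bond into saturated chains. Scd2 was the most abundant of the 32 genes per kilobase of exon, at 26.5 ± 1.13 in labelled-high libraries and 35.0 ± 1.32 in labelled-low libraries (RPKM, reads scaled to exon length and library size, SD, n = 3 each). In CPM it stood at 144, 151 and 139 in labelled-high libraries, against 185, 190 and 199 in labelled-low libraries. The groups did not overlap, and libraries of a label lay close together. Scd2 had a log2 fold change of -0.41 ± 0.15 (adjusted p 0.386 by edgeR), with within-batch ratios of -0.37, -0.33 and -0.52, and of -0.35 ± 0.10 in the GC-adjusted blocked fit (adjusted p 0.105). Scd1 stood at 11.9, 14.4 and 5.97 CPM in labelled-high libraries, against 11.4, 19.3 and 5.89 CPM in labelled-low libraries. It was highest in batch 2 and lowest in batch 3 under both labels, as were Fdft1, Hsd17b7 and Elovl6. How many of all tested genes share both was not counted. Taken apart, 8 sterol and 2 fatty acid genes were highest in batch 2 under both labels, against 14% of all tested genes. Lowest in batch 3 under both labels were 2 sterol and 3 fatty acid genes, against 9.06%. The log2 fold change of Scd1 was -0.21 ± 0.45 (adjusted p 0.816 by edgeR) and -0.19 ± 0.16 in the GC-adjusted blocked fit.

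Fibroblast markers were also lowest in batch 3 under both labels. The 7 markers summed to 411, 407 and 72.4 CPM in labelled-high libraries and to 511, 599 and 129 CPM in labelled-low libraries. Their part in the level of Scd1 was not tested. Of 7 adipocyte markers Plin1, Cidec and Lep had 0 reads, and most of the summed level came from the widely expressed lipase gene Pnpla2. That sum was 14.8 to 21.5 CPM in labelled-high libraries and 16.5 to 49.3 CPM in labelled-low libraries.

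The elongases had opposite signs. Elovl5, which elongates polyunsaturated chains, stood at 55.8, 60.7 and 62.0 CPM in labelled-high libraries, against 46.6, 53.7 and 33.0 CPM in labelled-low libraries. Among the 32 genes it alone had, in CPM, all labelled-high libraries above all labelled-low ones. Its log2 fold change of 0.42 ± 0.21 missed the threshold (adjusted p 0.446 by edgeR), as did 0.27 ± 0.11 in the GC-adjusted blocked fit. Elovl6, which elongates palmitate, stood at 7.01, 7.44 and 5.58 CPM in labelled-high libraries, against 8.95, 12.4 and 6.60 CPM in labelled-low libraries. The groups overlapped in CPM. The log2 fold change was -0.50 ± 0.28 (adjusted p 0.467 by edgeR) and -0.64 ± 0.17 in the GC-adjusted blocked fit (adjusted p 0.0728).

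Fads1 and Fads2, the delta-5 and delta-6 desaturases, lie on opposite strands of chromosome 19, Fads1 from 10182888 to 10196877 and Fads2 from 10062765 to 10101746 (GRCm38). Fads1 stood at 37.8, 35.6 and 41.0 CPM in labelled-high libraries, against 49.0, 42.9 and 67.8 CPM in labelled-low libraries. The groups did not overlap in CPM. The log2 fold change was -0.48 ± 0.21 (adjusted p 0.420 by edgeR) and -0.22 ± 0.11 in the GC-adjusted blocked fit. Fads2 stood at 1.45, 2.81 and 1.32 CPM in labelled-high libraries, from 26, 63 and 37 reads, against 6.34, 5.40 and 10.5 CPM in labelled-low libraries, from 119, 132 and 59 reads. All labelled-high libraries lay below all labelled-low ones, with within-batch log2 ratios of -2.11, -0.94 and -2.97. The log2 fold change was -1.66 without labelled-low replicate 3 (adjusted p 0.142 by edgeR) and -1.45 without both libraries of batch 3 (adjusted p 0.359).

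On the GC-adjusted log2 CPM scale Fads2 stood at 0.56, 1.73 and 0.80 in labelled-high libraries, against 2.50, 2.68 and 2.72 in labelled-low libraries, again without overlap. It was called by edgeR with the GC offset alone (adjusted p 0.0372), by DESeq2 (adjusted p 0.000686) and by edgeR without a filter on low counts (adjusted p 0.000108). It was not called with the block alone (adjusted p 0.194). The GC offset alone called 2.83% of genes and the block alone 0.29%. Per kilobase, Fads1 exceeded Fads2 by 17.9, 8.67 and 21.2-fold in labelled-high libraries and by 5.29, 5.45 and 4.41-fold in labelled-low libraries, a ratio chosen after the values had been seen.

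Dendritic cell markers were lower in the same libraries as Fads2. The 8 markers summed to 47.2 to 89.9 CPM in labelled-high libraries and 263 to 397 CPM in labelled-low libraries, mostly from Itgax, which macrophages also express. Of the 5 that could be tested, Flt3, Itgax and Ccr7 were lower by edgeR in the first fit, against 0.354% of all tested genes. The GC-adjusted blocked fit called 4 of the 5 lower, against 2.65%. DESeq2 called 6 of the 8 lower, against 2.25% of genes called in either direction. None of the 8 was at 0 in all 6 libraries. Flt3, from this list, stood at 0.0557 to 0.223 CPM in labelled-high libraries and 1.07 to 5.03 CPM in labelled-low libraries. Of 6 epithelial or tumour markers, 1 of 3 tested was lower by edgeR in the first fit, against 0.354% of all tested genes. The sums were 14.8 to 21.7 CPM in labelled-high libraries and 41.0 to 42.6 CPM in labelled-low libraries. The signs were mixed, with 2 negative log2 fold changes and 1 positive in the first fit. Cdh1, from this list, had log2 fold changes of -1.715 and -1.58 in the 2 fits. The median of the 3 was -0.32, and 0.13 in the GC-adjusted blocked fit. Of the 8 macrophage markers 0 were called by edgeR in the first fit, with 4 negative and 4 positive log2 fold changes. The GC-adjusted blocked fit called 2 of them higher and 0 lower, against 1.95% and 2.65% of all tested genes. DESeq2 also called 2 higher. The part of these marker lists in the level of Fads2 was not tested, and in bulk samples fewer cells of a type and less RNA per cell cannot be told apart.

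**Figure D3:**
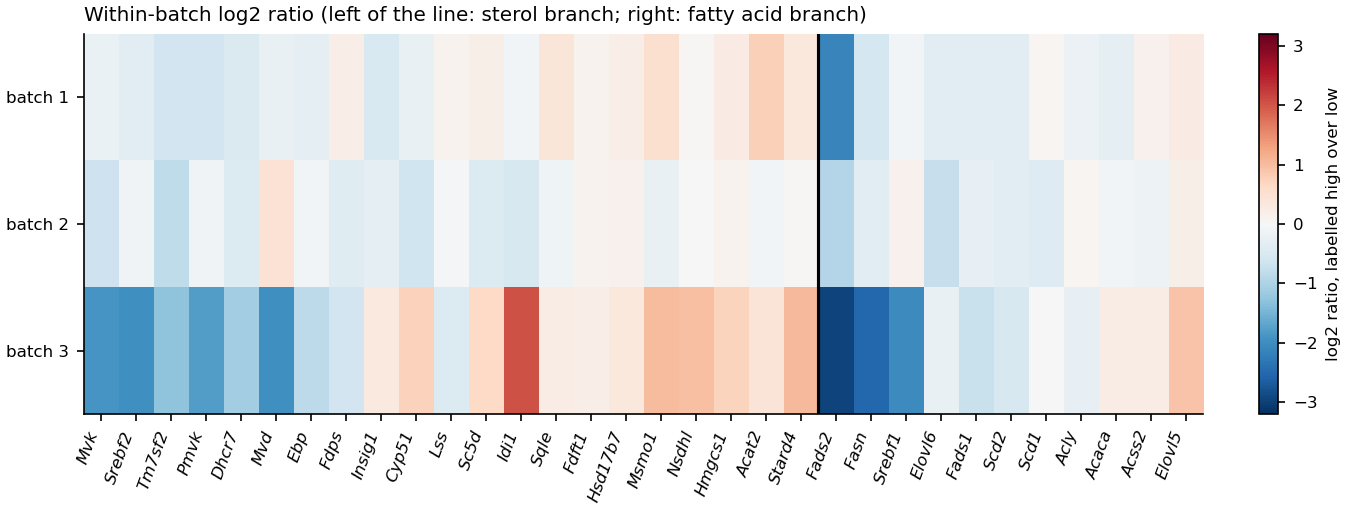
Log2 ratio of each gene within batches 1, 2 and 3, labelled high over labelled low, as colour (blue lower, red higher under the high label), with the sterol branch left of the line and the fatty acid branch right of it. Fads2 is lower in each batch (-2.11, -0.94 and -2.97), while Srebf1 is far from 0 in batch 3 alone (-0.09, 0.14 and -2.04).

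In the fatty acid branch 9 of 11 genes had a negative log2 fold change, and 8 of 11 in the GC-adjusted blocked fit, against 51.5% and 44.3% of all tested genes. The median within-batch log2 ratio of the branch was -0.30, -0.27 and -0.26 in batches 1, 2 and 3. For 3 of the 11 genes (Scd2, Fads1 and Fads2) all labelled-high libraries lay below all labelled-low ones, against 9.48% of tested genes, and for Elovl5 above, against 10.5%. With the GC trend removed 4 lay below (Fasn, Scd2, Elovl6 and Fads2) and 1 above (Elovl5), against 9.92% and 14.3%. Fads1 then overlapped. The summed CPM of the branch was 482, 469 and 439 in labelled-high libraries and 569, 520 and 624 in labelled-low libraries, without overlap, with Acly and Scd2 as its largest parts.

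Fold changes of the 32 genes went with the GC content of their longest transcripts. Of the 14 genes with at least 50% GC, 13 had a negative log2 fold change, with a median of -0.75, while 7 of the 18 below 50% had one, with a median of 0.08. Across the 32 genes the Spearman correlation of fold change with GC content was -0.75, and across 14123 tested genes it was -0.58, values that describe genes sharing the same 6 libraries. In the GC-adjusted blocked fit the correlations were -0.41 and 0.02, and 11 of the 14 genes were negative, with a median of -0.25. All 5 sterol genes whose groups did not overlap in CPM have at least 50% GC. The GC slope was 0.03, -0.27 and -0.48 per 10 percentage points in labelled-high batches 1, 2 and 3, and 0.21, -0.36 and 0.86 in labelled-low batches 1, 2 and 3.

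**Figure D4:**
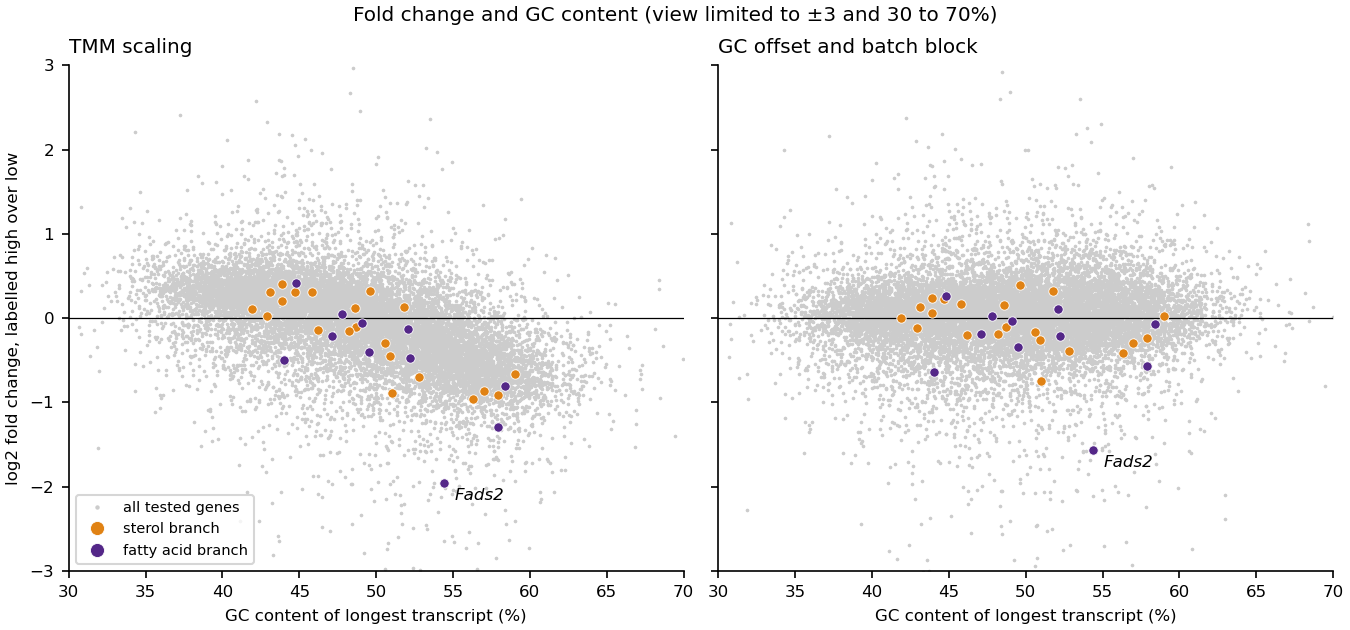
Log2 fold change (labelled high over labelled low) against GC content of the longest transcript in percent, for all tested genes (grey) and the sterol (orange) and fatty acid (purple) genes, with TMM scaling at left and GC offset plus batch block at right. The view is limited to 3 log2 units and to 30 to 70% GC; the downward slope at left (Spearman -0.75 over the 32 genes) is weaker at right (-0.41), where Fads2 lies apart at -1.57.

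Other genes of the pathway were read from lists outside the 32. Of 18 regulators of SREBP processing and turnover 17 could be tested, and 0 passed by edgeR in the first fit or by DESeq2, with 0 lower and 1 higher at an unadjusted p under 0.05, against 7.99% and 4.06% of all tested genes. The GC-adjusted blocked fit called 1 of the 17 higher and 0 lower, against 1.95% and 2.65% of all tested genes. The gene called was Fbxw7, a ubiquitin ligase subunit that targets nuclear SREBPs. It stood at 58.1, 58.2 and 60.4 CPM in labelled-high libraries, against 42.2, 39.6 and 25.9 CPM in labelled-low libraries. All labelled-high libraries lay above all labelled-low ones, with a log2 fold change of 0.71 ± 0.21 (adjusted p 0.285 by edgeR) and 0.64 ± 0.13 (adjusted p 0.0312) in the GC-adjusted blocked fit. Prkaa1, a catalytic subunit of AMP kinase, and Lpin1, a phosphatidate phosphatase, had values of 0.56 ± 0.26 and -0.48 ± 0.23, and of 0.34 ± 0.11 and -0.36 ± 0.14 in the GC-adjusted blocked fit.

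Of 33 further genes of fatty acid and glycerolipid synthesis 26 could be tested, and 0 passed by edgeR in the first fit or by DESeq2, with 2 lower and 3 higher at an unadjusted p under 0.05, against 7.99% and 4.06% of all tested genes. The GC-adjusted blocked fit called 1 of the 26 higher and 0 lower, against 1.95% and 2.65% of all tested genes. The gene called was Mid1ip1, an activator of acetyl-CoA carboxylase. It stood at 14.1, 11.4 and 7.90 CPM in labelled-high libraries, against 6.87, 6.42 and 8.74 CPM in labelled-low libraries, with overlap, and had a log2 fold change of 0.61 ± 0.28 (adjusted p 0.420 by edgeR) and 1.08 ± 0.17 (adjusted p 0.0101). Acsl1, an acyl-CoA synthetase, had values of 0.54 ± 0.15 and 0.37 ± 0.12 in the 2 fits. Dgat2 and Dgat1, which make triglyceride, had values of -1.42 ± 0.46 and -0.80 ± 0.30 in the first fit and of -0.91 ± 0.29 and -0.24 ± 0.18 in the GC-adjusted blocked fit.

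Of 14 genes of LXR signalling and cholesterol handling 0 passed by edgeR in the first fit, with 4 lower and 1 higher at an unadjusted p under 0.05, against 7.99% and 4.06% of all tested genes. DESeq2 and the GC-adjusted blocked fit each called 1 of the 14 higher and 0 lower. DESeq2 called 2.25% of all genes in either direction, and the GC-adjusted blocked fit called 1.95% higher and 2.65% lower. The gene called by both was Ch25h, which makes the SREBP-suppressing oxysterol 25-hydroxycholesterol. It stood at 12.7, 7.80 and 8.83 CPM in labelled-high libraries, against 3.84, 1.35 and 3.21 CPM in labelled-low libraries. The groups did not overlap, with a log2 fold change of 1.83 ± 0.41 (adjusted p 0.144 by edgeR) and 2.00 ± 0.22 (adjusted p 0.00211) in the GC-adjusted blocked fit. Apoe, the efflux apolipoprotein, and Cyp27a1, the sterol 27-hydroxylase, had values of -1.05 ± 0.37 and -0.62 ± 0.25 in the first fit, and of -0.34 ± 0.12 and -0.27 ± 0.17 in the GC-adjusted blocked fit.

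Promoter sequences came from RefSeq (GRCm38.p6), from 250 bases before to 50 bases after each annotated start. Fdps, Fdft1, Sqle, Stard4, Scd1, Scd2 and Fads1 had no entry and were not searched. The other 25 of the 32 genes matched, with 30 promoters. Those of Fads2, the gene with the largest difference, Fasn, the next in the first fit, and Hmgcs1, the one gene with a sterol element match, are printed 5′ to 3′ on the strand of the gene. Capitals mark every match on either strand to TCACNCCAC, a form like the sterol regulatory element, to the CCAAT box, to the GC box with the letters GGGCGG, or to the E box with the letters CACGTG.
Fads2, chr19:10101454-10101753, minus strand: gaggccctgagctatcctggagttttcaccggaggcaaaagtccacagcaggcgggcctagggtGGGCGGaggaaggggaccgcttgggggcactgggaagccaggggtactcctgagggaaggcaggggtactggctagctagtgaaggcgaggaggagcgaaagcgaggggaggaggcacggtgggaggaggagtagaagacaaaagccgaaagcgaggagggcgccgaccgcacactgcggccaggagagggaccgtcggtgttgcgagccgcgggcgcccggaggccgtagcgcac
Fasn, chr11:120824498-120824797, minus strand: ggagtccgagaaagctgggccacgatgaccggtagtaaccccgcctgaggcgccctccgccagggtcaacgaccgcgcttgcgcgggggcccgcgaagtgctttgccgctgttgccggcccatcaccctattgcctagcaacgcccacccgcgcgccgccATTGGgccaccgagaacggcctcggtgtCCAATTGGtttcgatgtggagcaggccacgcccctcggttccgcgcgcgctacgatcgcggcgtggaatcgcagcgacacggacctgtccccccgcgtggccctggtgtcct
Hmgcs1, chr13:119690101-119690400, plus strand: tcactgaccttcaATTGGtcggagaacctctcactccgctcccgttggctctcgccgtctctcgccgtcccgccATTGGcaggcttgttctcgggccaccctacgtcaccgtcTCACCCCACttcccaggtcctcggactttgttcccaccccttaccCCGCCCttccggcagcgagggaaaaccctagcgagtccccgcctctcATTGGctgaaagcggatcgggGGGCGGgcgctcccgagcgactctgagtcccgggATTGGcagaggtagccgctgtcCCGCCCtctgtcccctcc

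The Hmgcs1 window holds 1 sterol element match, 137 bases before the start, beside 4 CCAAT and 3 GC box matches. Fasn holds 3 CCAAT matches, of which 2 overlap, and Fads2 holds 1 GC box. CCAAT was present in 16 of 20 sterol promoters and 6 of 10 fatty acid promoters, against 37.4% of all 32851 promoters of the table. The GC box was present in 17 of 20 and 5 of 10, against 35.7%, and the E box in 4 of 20 and 1 of 10, against 7.15%. TCACNCCAC occurred in 1 of 20 and 0 of 10, against 1.24%, and SRE-1, the stricter form of the element that contains it, in 0 of the 30, against 0.0913%. Several promoters of 1 gene are counted apart, and a match describes letters, not binding.

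**Figure D5:**
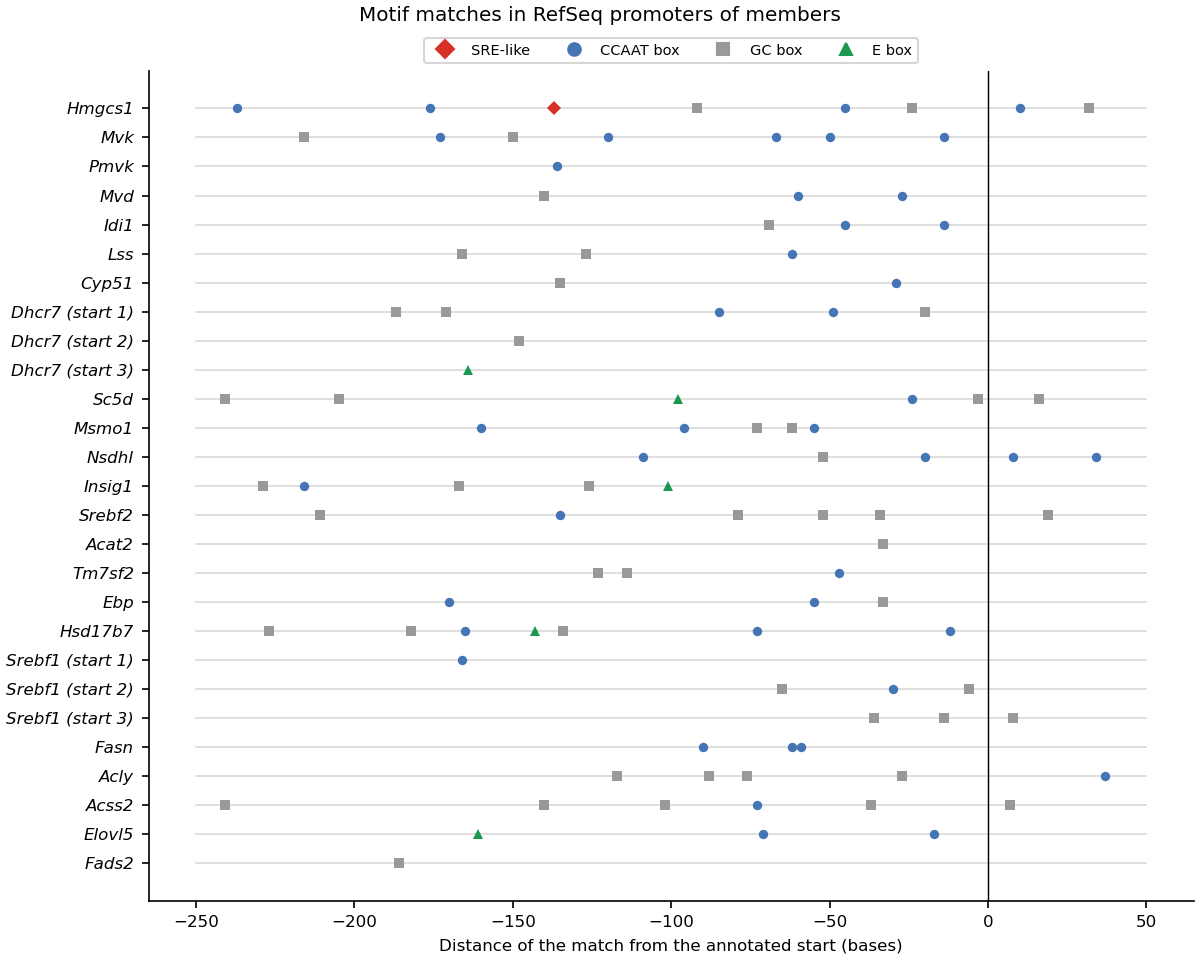
Positions of motif matches in RefSeq promoters, as distance in bases from the annotated start, for the 27 of 30 promoters with a match, with several rows for genes with several starts. Marks are coloured by motif; CCAAT occurs in 16 of 20 sterol promoters, Hmgcs1 carries the single sterol element match, and Fads2 has 1 GC box.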

How the data were processed

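The authors deposited raw counts of reads per Ensembl gene for each of the 6 libraries. Per the labels' protocols the kit keeps strand. According to the submitters' processing notes the tools were FastQC, Trimmomatic, STAR, HTSeq and DESeq2, with GRCm38. Versions, annotation and strand setting: not given in the sources used here. Summary lines, left out, held 35.2% to 49.4% of listed reads without a feature, 0.324% to 0.864% ambiguous and 7.6% to 17.4% aligned to several places, so overlapping genes and near-identical copies can lose reads.

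Symbols, exon lengths and GC content came from GENCODE M21, which matched 55227 genes. edgeR 4.0.16 in R 4.3.3 (TMM, default filter) compared the labels over all genes, with Benjamini-Hochberg adjustment. A standard error is the absolute log2 fold change over the root of the F statistic. The GC offset removed a local regression of log2 CPM on GC content (span 0.4, prior count 0.5). Batch numbers in the labels pair the libraries, and same-numbered libraries deviated from their label means with correlations of 0.15, 0.32 and -0.07. The 16 alternatives were other scalings, DESeq2 1.42.0, limma-voom 3.58.1 with quality weights, no filter, removal of rRNA and mitochondrial genes, the block, the GC offset, both, and libraries left out. Values per library were given for Srebf1, Srebf2, Insig1 and called members. Per branch they were also given for the 6 smallest p and the 3 highest levels per kilobase. Of the reported pathway lists they were given for genes called, with fold changes for the 3 smallest p. Marker lists were given as counts and sums, with values for a few of their genes only. Scd1 and the fibroblast markers were added for their batch pattern. Members and lists were chosen with earlier results of these data known. Depth limits low genes such as Fdps most. A further list of sterol genes is not reported here.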

Additional observations from a re-analysis of the deposited data

How the results depend on the processing

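Fads2 kept a negative log2 fold change under all 16 alternatives, from -2.37 to -1.45, with adjusted p from 0.000108 to 0.416, and 6 of them called it. Counts of called genes moved more: higher and lower were 108 and 266 by DESeq2, 165 and 235 with the GC offset, 276 and 375 with GC offset and replicate block, 2883 and 3207 by limma-voom, 113 and 436 without a filter, 1 and 40 with the replicate block, 8 and 52 with total reads, and 0 and 28 without batch 3. Leaving out 1 library gave 0 to 246 higher and 8 to 784 lower, the upper ends without labelled-low replicate 2. limma-voom called 6 sterol genes higher and 7 lower, and 1 fatty acid gene higher and 7 lower. Of the fatty acid genes DESeq2, the GC offset and GC offset with block each called 1 lower, no filter 2. Leaving out 1 library called 0 to 1 sterol gene in either direction and 0 to 2 fatty acid genes lower. Without labelled-low replicate 2, Msmo1 was higher (0.82, adjusted p 0.0497 by edgeR) and Srebf2 lower (-1.16, adjusted p 0.0462). The replicate block called none of the 32 genes and so changed no call among them.

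The sterol median was 0.27 by limma-voom and 0.16 with total reads, which moved the median of all genes to 0.25, and -0.21 to 0.27 with 1 library left out. The fatty acid median was -0.38 by DESeq2, -0.19 with GC offset and block, -0.21 with the GC offset, -0.33 by limma-voom, -0.33 without a filter, -0.11 with total reads, -0.22 without batch 3, and -0.42 to -0.21 with 1 library left out. Signs of uncalled genes turned as follows. With the GC offset and with GC offset and block, Mvd was 0.020 and 0.026, Idi1 -0.070 and -0.0021, Sc5d -0.16 and -0.11, and Acly 0.092 and 0.11. By limma-voom Fdps was 0.37, Lss 0.13 and Scd1 0.057. Without a filter Acaca was 0.0081. With total reads Lss was 0.16, Cyp51 0.023, Insig1 0.076, Acaca 0.20 and Acly 0.16. Without batch 3 Mvd was 0.015, Idi1 -0.34, Lss 0.030, Sc5d -0.18 and Acss2 -0.011. With 1 library left out the range was -0.25 to 0.74 for Idi1, -0.57 to 0.013 for Fdps, -0.024 to 0.35 for Fdft1, -0.0033 to 0.44 for Sqle, -0.24 to 0.064 for Lss, -0.40 to 0.27 for Cyp51, -0.21 to 0.49 for Sc5d, -0.15 to 0.095 for Acaca, -0.041 to 0.19 for Acss2 and -0.52 to 0.29 for Scd1. The cause was not tested.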
